A study of Mus musculus with 6 samples.

Results

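Gene levels were measured in the left ventricle of fl/fl and CS-Mpc2-/- mice. The genes described here carry the symbols of translation initiation factors (eIFs), translation elongation factors (eEFs) and the protein kinases named after them. They were taken from the deposited table as every gene whose symbol begins with Eif or Eef followed by a digit, without regard to measured values. The rule found 63 of the 12072 genes listed. By role they are 47 initiation genes, 8 elongation genes, 4 kinases of eIF2 and 4 genes that carry the older Eif2c symbols. The last 4 are Ago1 to Ago4 in current nomenclature and encode Argonaute proteins of small RNA silencing. The other 59 are not all translation factors either. The 8 elongation genes include Eef1e1, whose protein belongs to the multi-tRNA synthetase complex, and Eef2k, which encodes a kinase of eEF2. The 47 initiation genes include those of the eIF4E-binding proteins. All 63 are called translation factor genes below for short.

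Protein synthesis in the cytosol starts when eIF4F, made of the cap-binding protein eIF4E, the scaffold eIF4G and the helicase eIF4A, prepares an mRNA for the small ribosomal subunit. The subunit carries eIF3 and the eIF2 complex with the initiator tRNA, and eIF2 is recharged with GTP by eIF2B after each round. Cells lower initiation by phosphorylating eIF2, which is done by HRI, PKR, PERK and GCN2 in response to different stresses, or by letting eIF4E-binding proteins hold eIF4E when mTORC1 signalling is low. In elongation, eEF1A brings aminoacyl-tRNA to the ribosome and eEF2 moves the ribosome along. Adult heart and skeletal muscle replace much of the widely expressed eEF1A1 with its paralog eEF1A2.

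The study compares fl/fl mice, whose Mpc2 gene carries recombination sites, with CS-Mpc2-/- mice, in which Mpc2 is deleted, in work on mitochondrial pyruvate transport, glycogen and heart failure. All animals were 30 weeks old and ate chow. There were 6 mice per genotype, and RNA of 2 hearts was pooled per library, which gave 3 libraries per group. The labels do not spell out the prefix CS, and the promoter that drives the deletion is not given in the sources used here. No control that carries the deleting enzyme with an intact Mpc2 gene is among these samples.

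Values are read coverage per gene, given per 1000000 of the library total (ppm). In units of 1000000 smallest steps of a library, coverage ran from 92.9 and 202 in fl/fl replicates 1 and 2 to 389 in fl/fl replicate 3, with 278 to 319 in CS-Mpc2-/-. Mpc2 itself had 45.2, 38.9 and 27.7 ppm in the fl/fl libraries, in order of replicate, and 14.9, 18.2 and 46.3 ppm in those of CS-Mpc2-/-, so the library labelled CS-Mpc2-/- replicate 3 went against its label for this gene. The log2 difference of Mpc2 was -0.63 ± 0.35 (SE; limma adjusted p = 0.453). Of the fixed markers of ventricular cardiomyocytes 8 of 8 were measured, and none was at the smallest step of a library. Their summed level was 53620.0 to 93951 ppm over the fl/fl libraries and 55822 to 62725 over those of CS-Mpc2-/-. Summed fibroblast markers (8 of 8) were at 897 to 1863 and 2193 to 5625 ppm, and summed macrophage markers (4 of 6) at 140 to 223 and 225 to 298 ppm, in the same order. Summed skeletal muscle markers (3 of 5) had 165, 106 and 26.1 ppm in the fl/fl libraries, in order of replicate, against 40.3 to 73.1 ppm over those of CS-Mpc2-/-, with 0 called in limma and 2 lower without fl/fl replicate 3. Of the 4 atrial markers the table lists Nppa alone, which had 197, 175 and 7656 ppm in the fl/fl libraries and 6696 to 10961 in CS-Mpc2-/-. For the cardiomyocyte markers and Nppa, fl/fl replicate 3 had 53620.0 and 7656 ppm, closer to CS-Mpc2-/- than to the other fl/fl libraries.

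The translation factor genes together took a near constant share of the coverage. Their summed level was 8176, 7827 and 8003 ppm in fl/fl and 8340, 8227 and 7831 ppm in CS-Mpc2-/-, and these ranges overlapped. Per length of transcript (ppm per kb) the highest were Eef1a2 at 625 and Eef2 at 536 on average, followed by Eef1a1 and Eif5a at 118 each, Eif4g1 at 116 and Eif4g2 at 112. At the low end stood Eif5a2, an eIF5A paralog, at 1.56 ppm per kb. Eef2, Eef1a2, Eif4g1 and Eif4g2 held 55.9% of the summed ppm. In 24 of the 63 genes all 6 values lay within 1.5 times of each other, and in 14 the highest value was more than 2 times the lowest.

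With all 6 libraries none of the 63 genes passed the test (limma, Benjamini-Hochberg adjusted p under 0.05 over all genes), where 0% of all genes did. The smallest adjusted p among them was 0.220. At an unadjusted p under 0.05 limma had 7 of them higher in CS-Mpc2-/- (8.08% of all genes) and 1 lower (5.43% of all genes), where 13.5% of all genes were so in either direction. An unadjusted p under 0.05 was listed for 6 of them in the authors' deposited table, against 6.18% of all genes. The 3 CS-Mpc2-/- values lay wholly above the 3 fl/fl values for 6 genes (Eif6, Eif2s2, Eif2b3, Eif2b5, Eif3i and Eif3l, where 8.01% of all genes did so) and wholly below for 2 (Eef1a2 and Eif2d, against 6.48%). These 8 are 12.7% of the 63, against 14.5% of all genes, so separation was about as frequent as in the table as a whole. Under upper quartile scaling the split was even, with 4 above and 4 below: Eif3i and Eif3l no longer separated, and Eif4ebp2 and Eif4h lay below. Under median-of-ratios scaling it was 5 above and 2 below. The shares of all genes without overlap under these other scalings are not given here, so these counts are not read as a result about the 63. The median log2 difference was 0.13 over the 63 genes and 0.04 over all genes, and 42 were positive and 21 negative. With each library's trend over transcript length removed the median of the 63 was 0.05. The differences ran from -0.57 (Eif4ebp2) to 0.96 (Eif6), and in 33 genes they were under 0.2 in size.

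**Figure D1:**
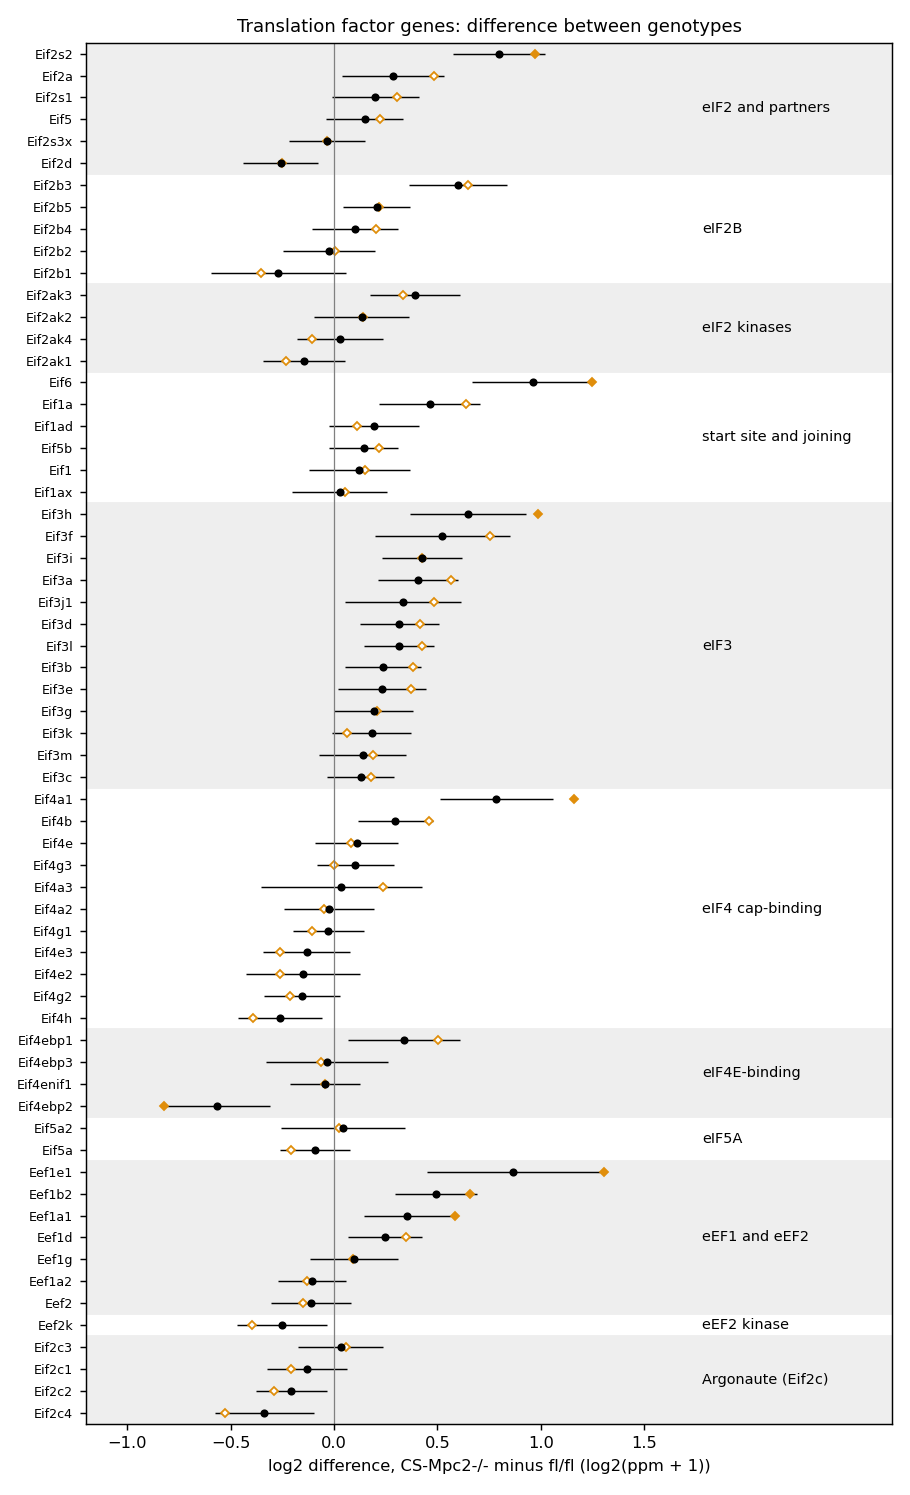
Log2 difference between CS-Mpc2-/- and fl/fl for each of the 63 genes, on the log2(ppm + 1) scale, ordered within role groups. Black points with bars are the estimate and its SE with all 6 libraries, and diamonds are the estimate without fl/fl replicate 3, filled where the adjusted p was under 0.05, which was so for 8 genes.

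A fit without fl/fl replicate 3 is given beside the main one throughout, a choice made with the position of that library known. The p-values of that fit do not allow for this choice, so its calls are given as a description. The library labelled CS-Mpc2-/- replicate 3, which went against its label for Mpc2, was kept in it. The fit without fl/fl replicate 3 called 8 of the 63 genes, which is 12.7% of them against 10.9% of all genes. Of the 8, 7 were higher, against 6.51% of all genes, and 1 was lower, against 4.4%. The share is therefore close to that of the whole table. The genes that rose in that fit were Eif4a1, Eif6, Eif2s2, Eif3h, Eef1e1, Eef1b2 and Eef1a1, and Eif4ebp2 fell. Leaving out a CS-Mpc2-/- library as well left 2 to 7 of the 63 called, with 2 without CS-Mpc2-/- replicate 1. These counts are not set against the whole table. Left ventricle is a mixture of cell types, and in bulk RNA fewer cells of a type and less RNA per cell cannot be told apart.

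The eEF1A paralogs are encoded by separate genes. Eef1a1 (ENSMUSG00000037742.14) lies on chromosome 9 from 78478449 to 78489151 of mm10, minus strand, with 8 exons and 1794 nt of transcript. Eef1a2 (ENSMUSG00000016349.10) lies on chromosome 2 from 181147653 to 181157014, minus strand, with 8 exons and 2084 nt. Over 1389 aligned nt their open reading frames are 80.13% identical, and the longest run without a difference is 23 nt. A stretch of 90 bases, from base 271 to base 360 of the frame, shows how reads of one gene can be told from the other. Its 13 differing bases are in capitals, as read from the GENCODE transcripts.
Eef1a1: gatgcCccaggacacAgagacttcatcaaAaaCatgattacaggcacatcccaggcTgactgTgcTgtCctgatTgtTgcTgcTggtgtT
Eef1a2: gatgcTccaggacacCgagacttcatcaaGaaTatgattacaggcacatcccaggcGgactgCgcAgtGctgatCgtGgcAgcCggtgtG

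Eef1a2, the muscle paralog, was the higher of the pair in every library. Its level was 1368.5, 1379.7 and 1303.2 ppm in fl/fl and 1280.3, 1272.4 and 1209.2 ppm in CS-Mpc2-/-. All 3 CS-Mpc2-/- values were below all 3 fl/fl values, but the gap was small, and under median-of-ratios scaling the groups overlapped. Group means were 1350.4 ± 41.3 and 1254.0 ± 39.0 ppm (± SD of 3 libraries), a log2 difference of -0.11 ± 0.17 (SE; limma adjusted p = 0.807, and 0.657 without fl/fl replicate 3). The authors' deposited table gives Eef1a2 a ratio of 0.928 with an unadjusted p of 0.0414. Its coefficient of variation over the 6 libraries, 4.91%, was the lowest of the 63 genes.

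Eef1a1, the paralog found in most cell types, showed 152, 159 and 252 ppm in the fl/fl libraries and 201, 272 and 233 ppm in those of CS-Mpc2-/-. Libraries 1 and 2 of fl/fl were the lowest of the 6, and fl/fl replicate 3 was among the CS-Mpc2-/- values. Group means were 188 ± 56.2 and 235 ± 35.5 ppm (± SD of 3 libraries), with a log2 difference of 0.35 ± 0.21 (SE; limma adjusted p = 0.484). Without fl/fl replicate 3 Eef1a1 rose by 0.59 ± 0.17 (SE; limma adjusted p = 0.0456). That call was made under 8 of 16 alternatives and was lost under upper quartile and median-of-ratios scaling and with the length trend removed. Near-identical copies in 13 other genes, 9 of them pseudogenes, cover 87.7% of the Eef1a1 transcript, while Eef1a2 has none. How coverage was shared among such copies is not given in the sources used here, so the level of Eef1a1 is uncertain. Eef1a1 is also the form that fibroblasts and other non-muscle cells use, and the summed fibroblast markers given above were higher in each CS-Mpc2-/- library than in any fl/fl library. Their part in the Eef1a1 values was not tested.

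Within a library the level of Eef1a2 per length was 4.03 to 7.76 times that of Eef1a1. The ratio was 7.76, 7.48 and 4.44 in fl/fl and 5.48, 4.03 and 4.46 in CS-Mpc2-/-. The fl/fl replicates 1 and 2 had the highest ratios, and fl/fl replicate 3 lay within the CS-Mpc2-/- range. The means were 6.56 ± 1.84 and 4.66 ± 0.746 (SD, n = 3 each). The log2 ratio differed by -0.46, which did not exceed the spread between libraries (exact permutation test, two-sided p = 0.3, with 0.1 the smallest possible). It was -0.72 without fl/fl replicate 3 (exact permutation p = 0.2). There both remaining fl/fl ratios lay above all CS-Mpc2-/- ratios, and 0.2 is the smallest p that this two-sided test can give with 2 against 3 libraries. That p therefore cannot show whether the ratio differed.

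**Figure D2:**
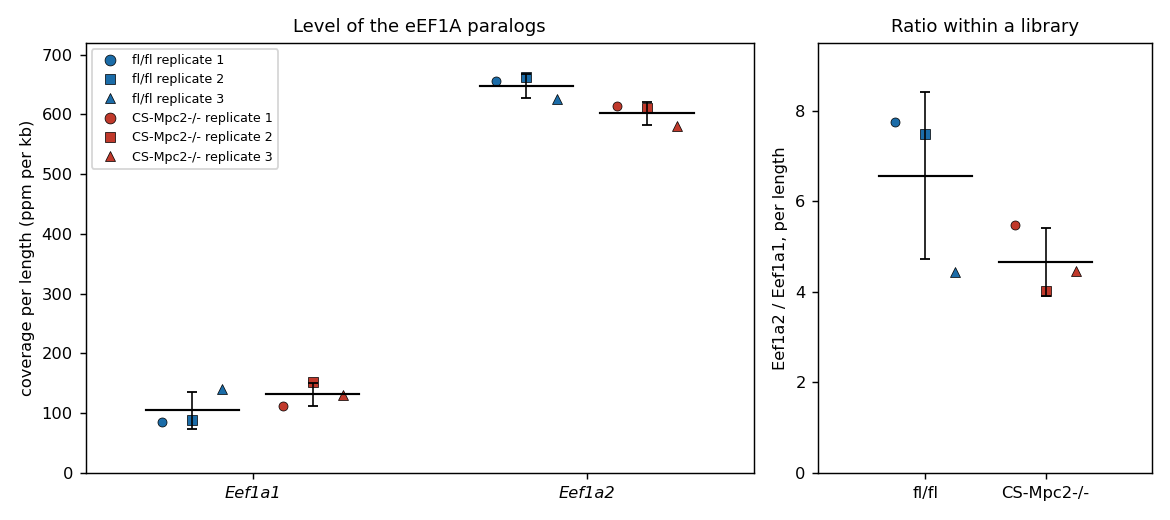
Left, coverage per length (ppm per kb) of Eef1a1 and Eef1a2 in each library, with the group mean (line) and SD (bar, n = 3). Right, the ratio of Eef1a2 to Eef1a1 per length within each library, which was 7.76 and 7.48 in fl/fl replicates 1 and 2 and between 4.03 and 5.48 in the other 4 libraries.

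Eef2, the translocase of the ribosome, had the highest ppm of the 63 genes and did not separate the groups. It measured 1906, 1619 and 1618 ppm in the fl/fl libraries and 1740, 1752 and 1298 ppm in those of CS-Mpc2-/-, and the library labelled CS-Mpc2-/- replicate 3 was the lowest. In log2 terms it differed by -0.11 ± 0.19 (SE; limma adjusted p = 0.830) and was 0.03 without that library. Eef2k, the kinase that phosphorylates eEF2 and slows elongation, had 56.0, 67.0 and 44.9 ppm in the fl/fl libraries and 39.5, 59.4 and 42.0 ppm in those of CS-Mpc2-/-. These ranges overlapped, with a log2 difference of -0.25 ± 0.22 (SE; limma adjusted p = 0.619).

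The subunits of eEF1B, which reload eEF1A with GTP, had positive differences with all 6 libraries that varied in size. Eef1b2, the alpha subunit with exchange activity, showed 54.8, 47.0 and 71.9 ppm in the fl/fl libraries and 84.7, 68.9 and 89.8 ppm in those of CS-Mpc2-/-. Its highest fl/fl value, in replicate 3, exceeded the lowest CS-Mpc2-/- value. This gave a log2 difference of 0.49 ± 0.20 (SE; limma adjusted p = 0.322), and without fl/fl replicate 3 Eef1b2 rose by 0.66 ± 0.19 (SE; limma adjusted p = 0.0442). Eef1b2 overlaps Ndufs1 on the other strand, and with no strand setting given their coverage cannot be told apart there. Eef1d, the other exchange subunit, and Eef1g, the structural subunit, had log2 differences of 0.25 ± 0.18 and 0.10 ± 0.21 (SE), and neither passed in either fit. The difference of Eef1g was -0.04 without fl/fl replicate 2.

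Eef1e1, also known as AIMP3, belongs to the multi-tRNA synthetase complex and was the most variable of the 63 genes. It measured 5.33, 2.50 and 10.8 ppm in the fl/fl libraries and 13.6, 7.01 and 12.5 ppm in those of CS-Mpc2-/-. The fl/fl replicates 1 and 2 were the lowest libraries, and the coefficient of variation over all 6 was 50.7%. The log2 difference was 0.87 ± 0.42 (SE; limma adjusted p = 0.393). Without fl/fl replicate 3 Eef1e1 rose by 1.31 ± 0.38 (SE; limma adjusted p = 0.0418).

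Of the 3 eIF2 subunits measured under Eif2s symbols, the beta subunit alone separated the groups, where 14.5% of all genes did so in either direction. Eif2s2, which encodes it, had 17.5, 16.2 and 24.7 ppm in the fl/fl libraries and 30.9, 32.2 and 39.4 ppm in those of CS-Mpc2-/-. Each CS-Mpc2-/- library was above each fl/fl library, and this held under all 3 scalings tried. Group means were 19.5 ± 4.55 and 34.2 ± 4.58 ppm (± SD of 3 libraries), a ratio of 1.76 in the authors' deposited table. In log2 terms it differed by 0.80 ± 0.22 (SE; limma adjusted p = 0.220), and without fl/fl replicate 3 Eif2s2 rose by 0.97 ± 0.23 (SE; limma adjusted p = 0.0150). A pseudogene copy covers 39.0% of its transcript, and the gene with the symbol a overlaps Eif2s2 on the other strand. Eif2s1, the alpha subunit that carries the regulated phosphorylation site, showed 26.8, 30.8 and 36.2 ppm in the fl/fl libraries and 35.4, 29.9 and 43.3 ppm in those of CS-Mpc2-/-, with a log2 difference of 0.20 ± 0.21 (SE). Eif2s3x, the gamma subunit that binds the initiator tRNA, had -0.03 ± 0.19 (SE). The alpha and gamma subunits overlapped between groups, and the difference between subunits was not tested.

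None of the partners of eIF2 passed in either fit. Eif5, which stimulates GTP hydrolysis by eIF2, measured 72.1, 82.1 and 89.6 ppm in the fl/fl libraries and 73.9, 91.9 and 106 ppm in those of CS-Mpc2-/- (log2 difference 0.15 ± 0.19, SE). Eif2a and Eif2d encode proteins that can deliver initiator tRNA without eIF2. Eif2a had 26.3, 34.8 and 45.9 ppm against 37.1, 36.8 and 56.8 ppm. Eif2d had 39.1, 34.6 and 37.3 ppm in the fl/fl libraries and 32.2, 31.0 and 29.1 ppm in those of CS-Mpc2-/-. The Eif2d groups did not overlap, yet its log2 difference was -0.26 ± 0.18 (SE; limma adjusted p = 0.551), and Rassf5 overlaps it on the other strand.

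Among the 5 subunits of eIF2B, the exchange factor of eIF2, the gamma and epsilon subunits of the catalytic part were the ones without overlap. Both were higher, where 8.01% of all genes were higher without overlap, and a set of 5 is too small to compare with that share. Eif2b3, which encodes gamma, showed 9.22, 9.06 and 10.2 ppm in the fl/fl libraries and 13.0, 17.0 and 14.9 ppm in those of CS-Mpc2-/-, a log2 difference of 0.60 ± 0.24 (SE; limma adjusted p = 0.313). Eif2b5, which encodes the catalytic epsilon subunit, measured 61.5, 61.0 and 62.7 ppm in the fl/fl libraries and 70.3, 76.2 and 67.9 ppm in those of CS-Mpc2-/-, a log2 difference of 0.21 ± 0.16 (SE; limma adjusted p = 0.596). In both genes the fl/fl libraries lay close together and fl/fl replicate 3 stayed with its group, and neither passed in either fit. Eif2b1, the alpha subunit, had 8.73, 24.0 and 12.2 ppm against 9.83, 11.3 and 12.7 ppm. Its log2 difference of -0.27 ± 0.33 (SE) turned to 0.11 without fl/fl replicate 2, the library with 24.0 ppm.

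The 4 eIF2 kinases were expressed at similar levels per length, with means over all libraries of 6.44 ppm per kb for Eif2ak1 and 4.61 to 4.69 for the other 3. None passed limma's test in either fit, and with all 6 libraries 0 of the 4 had an unadjusted p under 0.05, against 13.5% of all genes. Eif2ak3, which encodes PERK of the endoplasmic reticulum, had 21.3, 16.6 and 16.7 ppm in the fl/fl libraries and 26.3, 25.9 and 20.3 ppm in those of CS-Mpc2-/-. The groups overlapped in 1 library each, and the log2 difference of 0.39 ± 0.22 (SE; limma adjusted p = 0.451) was the largest of the 4. Eif2ak1, which encodes the heme-regulated kinase HRI that also relays mitochondrial stress, had 30.3, 31.8 and 25.9 ppm against 23.5, 26.3 and 29.4 ppm, a log2 difference of -0.15 ± 0.20 (SE; limma adjusted p = 0.771). Eif2ak2, which encodes the double-stranded RNA sensor PKR, had 22.5, 15.5 and 18.9 ppm against 23.5, 17.0 and 22.0 ppm, with 0.13 ± 0.23 (SE; limma adjusted p = 0.830). Eif2ak4, which encodes the amino acid sensor GCN2, had 28.5, 24.9 and 19.7 ppm against 24.2, 24.6 and 25.1 ppm. Its log2 difference of 0.03 ± 0.21 (SE; limma adjusted p = 0.965) became -0.01 under upper quartile and median-of-ratios scaling and -0.11 without fl/fl replicate 3. These are transcript levels, and kinase activity and eIF2 phosphorylation were not measured here. Annotated genes overlap Eif2ak1, Eif2ak2 and Eif2ak3 on the other strand.

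**Figure D3:**
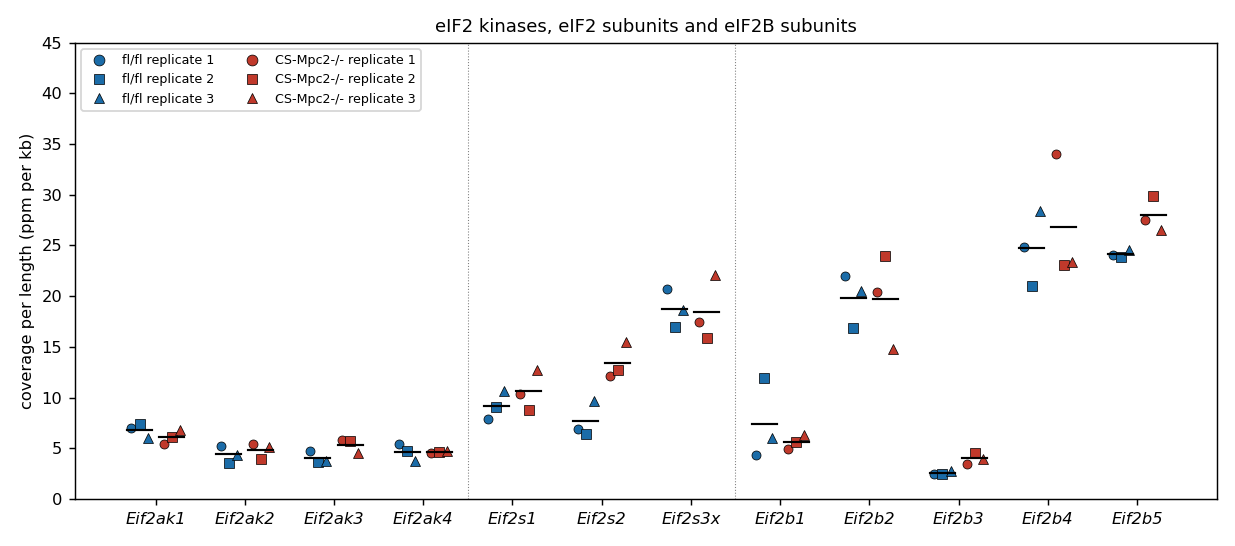
Coverage per length (ppm per kb) of the eIF2 kinases (left), the eIF2 subunits (middle) and the eIF2B subunits (right) in each library, with lines at the group means (n = 3). Eif2s2, Eif2b3 and Eif2b5 have all CS-Mpc2-/- points above all fl/fl points, while the 4 kinases overlap between groups.

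Eif6 had the largest log2 difference of the 63 genes with all 6 libraries. The protein binds the large ribosomal subunit and keeps it from joining the small one too early. Eif6 showed 8.60, 15.3 and 21.7 ppm in the fl/fl libraries and 30.3, 32.2 and 24.2 ppm in those of CS-Mpc2-/-. The groups did not overlap under any of the 3 scalings, although fl/fl replicate 3 came close to the lowest CS-Mpc2-/- library. Group means were 15.2 ± 6.53 and 28.9 ± 4.16 ppm (± SD of 3 libraries), and the log2 difference was 0.96 ± 0.29 (SE; limma adjusted p = 0.240). Without fl/fl replicate 3 Eif6 rose by 1.25 ± 0.28 (SE; limma adjusted p = 0.0118). The predicted gene Gm16098 overlaps Eif6 on the other strand and matches 9.20% of its transcript.

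The other 5 genes of start site selection and subunit joining had positive differences that did not pass in either fit. Eif1a, a scanning factor, measured 21.4, 14.6 and 26.0 ppm in the fl/fl libraries and 27.7, 24.1 and 32.998 ppm in those of CS-Mpc2-/-, with overlap and a log2 difference of 0.46 ± 0.24 (SE; limma adjusted p = 0.431). Eif5b, the GTPase of subunit joining, had 73.4, 71.3 and 84.7 ppm against 84.8, 76.4 and 92.3 ppm, with 0.14 ± 0.17 (SE). Eif1ad had a difference of 0.19 ± 0.22 (SE), Eif1 0.12 ± 0.24 (SE) and Eif1ax 0.03 ± 0.23 (SE). Of the 6 genes in the group, 1 turned negative under upper quartile or median-of-ratios scaling, with the length trend removed, and without fl/fl replicate 1 or CS-Mpc2-/- replicate 3.

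All 13 eIF3 subunit genes had a positive log2 difference, from 0.13 (Eif3c) to 0.65 (Eif3h), with a median of 0.31 against 0.04 over all genes. The 13 stayed positive under all 3 scalings. With the length trend removed 12 were positive and the median was 0.25, and without fl/fl replicate 2 the count was also 12. Their summed level was 830, 847 and 1049 ppm in fl/fl and 1124, 1203 and 1020 ppm in CS-Mpc2-/-, and fl/fl replicate 3 exceeded the lowest CS-Mpc2-/- library. The encoded proteins form 1 complex, and no p is given for the group because it was chosen with results of these data known. None of the 13 passed in limma with all 6 libraries (2 were higher at an unadjusted p under 0.05, against 8.08% of all genes). In the fit without fl/fl replicate 3, 1 was called higher, which is 7.69% of the 13, against 6.51% of all genes.

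That gene was Eif3h, a subunit outside the core that is linked to translation of particular mRNAs. It had 32.6, 55.8 and 87.6 ppm in the fl/fl libraries and 88.5, 80.9 and 87.7 ppm in those of CS-Mpc2-/-, so the fl/fl libraries were spread widely and CS-Mpc2-/- closely. This gave a log2 difference of 0.65 ± 0.28 (SE; limma adjusted p = 0.355), and without fl/fl replicate 3 Eif3h rose by 0.99 ± 0.22 (SE; limma adjusted p = 0.0126). A pseudogene copy covers 81.5% of the Eif3h transcript. Eif3a, the largest subunit and the eIF3 gene with the highest ppm, showed 167, 160 and 227 ppm in the fl/fl libraries and 228, 294 and 210 ppm in those of CS-Mpc2-/- (log2 difference 0.40 ± 0.19, SE; limma adjusted p = 0.385). Eif3i, a subunit with a WD40 propeller, had 44.0, 36.7 and 40.1 ppm against 59.1, 60.9 and 44.4 ppm, with 0.43 ± 0.19 (SE; limma adjusted p = 0.363). Eif3a overlapped between groups through fl/fl replicate 3, and Eif3i did not overlap when scaled to the library total but did under the other scalings.

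The 11 eIF4 genes other than those of the eIF4E-binding proteins, labelled cap-binding in the figures, had mixed signs. There were 5 positive and 6 negative, with a median of -0.02. They encode helicases, scaffolds and helicase cofactors as well as cap-binding proteins. Eif4a1, the RNA helicase of eIF4F, had the largest difference of the 11. It measured 60.3, 51.0 and 122 ppm in the fl/fl libraries and 132, 136 and 109 ppm in those of CS-Mpc2-/-, so fl/fl replicate 3 was at the CS-Mpc2-/- level and the other fl/fl libraries were well below it. The log2 difference was 0.79 ± 0.27 (SE; limma adjusted p = 0.273). Without fl/fl replicate 3 it rose by 1.16 ± 0.18 (SE; limma adjusted p = 0.00145). Copies in 3 pseudogenes cover 68.8% of the Eif4a1 transcript.

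Eif4a2, the paralogous helicase that is abundant in differentiated tissue, did not pass in either fit. It had 142, 146 and 137 ppm in the fl/fl libraries and 144, 98.1 and 192 ppm in those of CS-Mpc2-/- (log2 difference -0.02 ± 0.22, SE; limma adjusted p = 0.972). Within a library the ratio of Eif4a1 to Eif4a2 in ppm was 0.424, 0.348 and 0.887 in fl/fl and 0.921, 1.38 and 0.566 in CS-Mpc2-/-. This ratio was looked at after the values were seen, and it overlapped between groups.

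The scaffold genes Eif4g1 and Eif4g2 had the highest ppm of the initiation genes and did not separate the groups. Eif4g2, which encodes a scaffold that lacks the eIF4E site, showed 996, 959 and 864 ppm in the fl/fl libraries and 790, 729 and 1034.1 ppm in those of CS-Mpc2-/- (log2 difference -0.16 ± 0.18, SE). Eif4g1 had 725, 671 and 592 ppm against 717, 661 and 573 ppm, with -0.03 ± 0.17 (SE). Eif4b and Eif4h encode cofactors of the helicase and differed in sign. Eif4b had 238, 233 and 332 ppm against 364, 306 and 306 ppm (0.30 ± 0.18, SE; limma adjusted p = 0.496). Eif4h had 67.2, 105 and 64.2 ppm against 64.3, 63.9 and 63.6 ppm (-0.26 ± 0.20, SE; limma adjusted p = 0.591), where fl/fl replicate 2 alone was high.

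Eif4e, the cap-binding protein, measured 74.5, 67.4 and 66.6 ppm in the fl/fl libraries and 75.2, 58.1 and 96.3 ppm in those of CS-Mpc2-/- (log2 difference 0.11 ± 0.20, SE). The genes of its inhibitors differed in sign. Eif4ebp2 had the most negative difference of the 63 genes, with 40.6, 28.4 and 19.5 ppm in the fl/fl libraries and 19.97, 18.1 and 18.4 ppm in CS-Mpc2-/-. The CS-Mpc2-/- libraries were alike, and fl/fl replicate 3 lay among them when scaled to the library total. In log2 terms it differed by -0.57 ± 0.26 (SE; limma adjusted p = 0.367), and without fl/fl replicate 3 Eif4ebp2 fell by 0.82 ± 0.24 (SE; limma adjusted p = 0.0415). No near-identical copy of it was found.

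Eif4ebp1, the inhibitor best known as an mTORC1 target, had 35.8, 68.3 and 69.6 ppm in the fl/fl libraries and 67.0, 93.5 and 55.6 ppm in those of CS-Mpc2-/- (log2 difference 0.34 ± 0.27, SE; limma adjusted p = 0.599). The ratio of Eif4ebp1 to Eif4e in ppm was 0.480, 1.01 and 1.05 in fl/fl and 0.891, 1.61 and 0.578 in CS-Mpc2-/-. The log2 ratio differed by 0.23 (exact permutation test, two-sided p = 0.7, with 0.1 the smallest possible) and changed sign when fl/fl replicate 1 or CS-Mpc2-/- replicate 2 was left out. Eif4enif1, which carries eIF4E into the nucleus, had a difference of -0.04 ± 0.17 (SE), and Eif4ebp3 had -0.03 ± 0.30 (SE).

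Eif5a, which relieves stalled ribosomes and carries the amino acid hypusine, showed 194, 184 and 148 ppm in the fl/fl libraries and 183, 158 and 152 ppm in those of CS-Mpc2-/- (log2 difference -0.09 ± 0.17, SE; limma adjusted p = 0.844). Its paralog Eif5a2 had 10.6, 5.47 and 7.32 ppm against 6.67, 8.12 and 8.79 ppm, with 0.04 ± 0.30 (SE). Both overlapped between groups.

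The 4 Argonaute genes had a median log2 difference of -0.17, with 1 positive and 3 negative, and none passed in either fit. Eif2c2, which is Ago2, the slicing Argonaute, measured 98.3, 98.0 and 82.2 ppm in the fl/fl libraries and 86.5, 84.5 and 70.0 ppm in those of CS-Mpc2-/- (-0.21 ± 0.17, SE; limma adjusted p = 0.609). Eif2c4 had 37.8, 38.3 and 25.4 ppm against 26.6, 20.4 and 32.8 ppm (-0.34 ± 0.24, SE; limma adjusted p = 0.555), and Eif2c1 had -0.13 ± 0.19 (SE). Without these 4 genes the median of the other 59 was 0.14.

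The 8 genes called without fl/fl replicate 3 passed only once that library was left out, so its position in them is largely set by how they were chosen and is given as a description. On the log2(ppm + 1) scale its value in all 8 was nearer to the CS-Mpc2-/- mean than to the mean of the other fl/fl libraries. For Eif2s2 this was narrow, at 0.54 of the way, and in ppm its 24.7 was nearer to the other fl/fl mean (16.9) than to the CS-Mpc2-/- mean (34.2). In 6 of the 8 that library lay within the CS-Mpc2-/- range. Eif4a1 was called in that fit under all 16 alternatives, Eif6 and Eif2s2 under 14, Eif3h under 13, Eef1e1 under 12, Eif4ebp2 under 11, and Eef1a1 and Eef1b2 under 8. The median position of fl/fl replicate 3 was 0.95 of the way from the other fl/fl libraries to CS-Mpc2-/-, and 0.83 over the 1317 genes called, and so chosen, in the same way. Depth moved with these groups as well, since fl/fl replicates 1 and 2 were the shallowest libraries, and its part in these calls was not tested. When replicate 3 of both groups was left out, 7 of the 63 genes were called, against 12.5% of all genes in either direction. All 7 were higher, and the share of all genes called higher in that fit is not given here. These were Eif4a1, Eif6, Eif2s2, Eif3h and Eef1a1, which are 5 of the 8, with Eif3a and Eif4b.

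**Figure D4:**
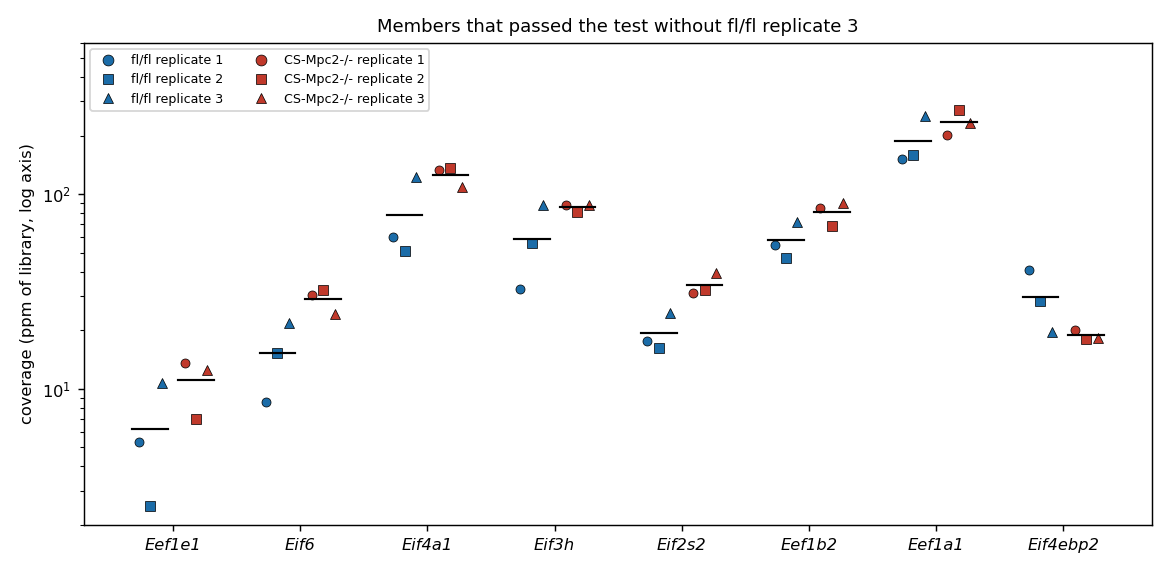
Coverage (ppm, log axis) in each library of the 8 genes called without fl/fl replicate 3, with lines at the means of the 3 libraries of each group. The triangle of fl/fl replicate 3 lies nearer to the CS-Mpc2-/- mean than fl/fl replicates 1 and 2 do in every gene shown.

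Transcript length and near-identical copies varied with these results. Over all genes the median log2 difference was 0.24 for transcripts of up to 1000 nt and near 0.00 for those longer than 3000 nt. The 10 translation factor genes of 1500 to 2000 nt had a median of 0.32 against 0.10 over all genes of that length. The 15 longer than 5000 nt had 0.03 against 0.00. The 2 of up to 1000 nt had 0.07 against 0.24, and the 7 of 1000 to 1500 nt had 0.19 against 0.15. The 15 of 2000 to 3000 nt had 0.21 against 0.05, and the 14 of 3000 to 5000 nt had 0.12 against 0.00. With the length trend removed 6 of the 63 genes were called without fl/fl replicate 3, and Eef1a1 and Eef1b2 were the ones lost. The share of all genes called with that trend removed is not given here. Of the 17 genes with a pseudogene copy 5 were called in that fit (29.4%), and of the 31 with no near-identical copy 2 were (6.45%), namely Eef1e1 and Eif4ebp2, against 10.9% of all genes. The difference between these subsets was not tested. An annotated gene overlaps 20 of the 63 on the other strand. The part of copies, of such overlap and of length in single genes was not tested.

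By broad class, the median log2 difference was 0.14 over the 47 initiation genes (33 positive, 14 negative), 0.17 over the 8 elongation genes (5 positive, 3 negative) and 0.08 over the 4 kinases (3 positive, 1 negative). The classes were not tested against each other. The summed level of the initiation genes was 4197, 4152 and 4310 ppm in fl/fl and 4550, 4387 and 4546 ppm in CS-Mpc2-/-, without overlap when scaled to the library total. The gap from 4310 to 4387 ppm was narrow, and other scalings of this sum are not given here. Among the initiation genes, eIF3 sums averaged 909 ppm in fl/fl and 1116 ppm in CS-Mpc2-/- and overlapped. The sums of the 11 eIF4 genes labelled cap-binding averaged 2370 and 2369 ppm. Summed elongation genes were at 3671, 3381 and 3438 ppm against 3515, 3578 and 3014 ppm, and the sum rests mostly on Eef2 and Eef1a2. Summed kinases were at 103, 88.8 and 81.2 ppm against 97.5, 93.7 and 96.8 ppm. Elongation and kinase sums overlapped between groups.

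A group of 9 of these genes belongs to the mRNAs with a terminal oligopyrimidine start, a class whose translation follows mTORC1. They are Eef1a1, Eef1b2, Eef1d, Eef1g, Eef2, Eif3e, Eif3f, Eif3h and Eif4b. Their median log2 difference was 0.30, with 8 positive and Eef2 negative with all 6 libraries. Eef2 was at 0.03 without the library labelled CS-Mpc2-/- replicate 3, and Eef1g was at -0.04 without fl/fl replicate 2. None passed in limma with all 6 libraries. At an unadjusted p under 0.05, 2 of the 9 were higher, against 8.08% of all genes, and 3 rose in the fit without fl/fl replicate 3, against 6.51% of all genes. A set of 9 is too small to compare with these shares. The 3 were Eef1a1, Eef1b2 and Eif3h, and each has a pseudogene copy. With the length trend removed the calls of Eef1a1 and Eef1b2 were lost.

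**Figure D5:**
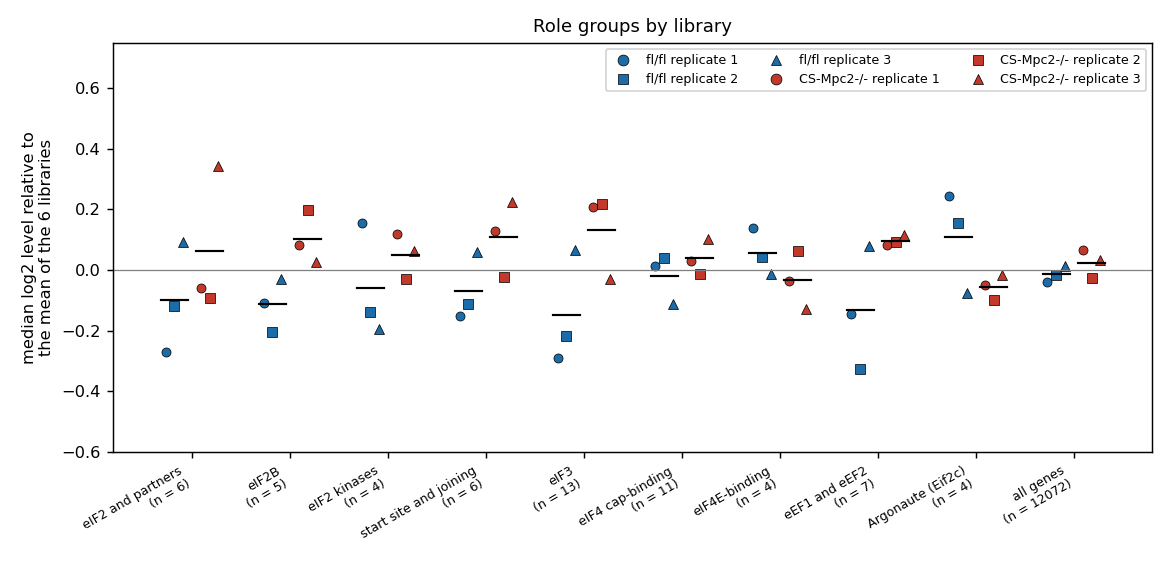
Median log2 level of each role group in each library, relative to each gene's mean over the 6 libraries, with lines at the group means and all 12072 genes at the right. For eIF3 the fl/fl replicates 1 and 2 are at -0.29 and -0.22, fl/fl replicate 3 is at 0.07, and CS-Mpc2-/- is at 0.21, 0.22 and -0.03.

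Over the 6 libraries the log2 values closest to those of Eef1a2 were those of Eif2c2 (Pearson r = 0.96), Eif4ebp2 (0.82) and Eif2d (0.81). These are descriptions over 6 pools that share their groups and their depths, and Eef1a2 itself varied by a factor of 1.14 from lowest to highest.

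Other genes of the pathway were taken from lists by function, and none of them passed in limma with all 6 libraries. The list of other cytosolic factors, which holds poly(A)-binding, release and recycling factors, had 21 of 24 genes measured. Their median log2 difference was 0.20, with 17 positive and 4 negative. At an unadjusted p under 0.05, 1 was higher and 1 lower, against 8.08% and 5.43% of all genes. Pelo, which rescues stalled ribosomes, had 12.2, 16.7 and 23.8 ppm in the fl/fl libraries and 27.1, 30.4 and 23.7 ppm in those of CS-Mpc2-/-. It was the 1 gene of the list that rose without fl/fl replicate 3 (0.87 ± 0.25, SE; limma adjusted p = 0.0372). That is 4.76% of those measured, against 6.51% of all genes. Secisbp2, whose protein binds the selenocysteine insertion element of selenoprotein mRNAs, had 32.9, 42.5 and 35.2 ppm against 32.7, 21.5 and 19.7 ppm, with -0.59 ± 0.23 (SE; limma adjusted p = 0.307).

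Genes of mTORC1 and eIF4E signalling had the opposite balance of signs, with 5 positive and 12 negative of 17 measured (20 listed) and a median of -0.17. None was called by limma in either fit, against 10.9% of all genes without fl/fl replicate 3. With all 6 libraries 0 had an unadjusted p under 0.05, against 13.5% of all genes. Mlst8, a shared subunit of the mTOR complexes, showed 27.2, 22.9 and 17.8 ppm in the fl/fl libraries and 17.1, 16.2 and 15.6 ppm in those of CS-Mpc2-/- (-0.43 ± 0.22, SE; limma adjusted p = 0.427). Sesn1, a sestrin that restrains mTORC1, had 144, 180 and 121 ppm against 79.3, 126 and 135 ppm (-0.40 ± 0.22, SE; limma adjusted p = 0.451).

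The list of the eIF2 phosphatase and the ATF4 programme, which acts downstream of eIF2 phosphorylation, had 17 of 21 genes measured and a median of 0.35, with 12 positive and 5 negative, and 6 higher at an unadjusted p under 0.05, against 8.08% of all genes. Without fl/fl replicate 3, 5 of the 17 rose, which is 29.4% against 6.51% of all genes. They were Atf4, Atf3, Asns, Mthfd2 and Gdf15. Mthfd2, a mitochondrial folate enzyme, measured 1.18, 3.10 and 5.48 ppm in the fl/fl libraries and 10.8, 8.49 and 12.3 ppm in those of CS-Mpc2-/-, without overlap (1.56 ± 0.39, SE; limma adjusted p = 0.220, and 0.00568 without fl/fl replicate 3). Gdf15, a secreted stress signal, had 1.52 ppm in fl/fl replicate 1, 6.48 ppm in replicate 3 and the smallest step in replicate 2, against 7.04, 12.02 and 13.3 ppm in CS-Mpc2-/-. Atf4, the transcription factor of the programme, had 41.6, 46.3 and 92.1 ppm against 99.5, 88.4 and 84.3 ppm, so fl/fl replicate 3 was again at the CS-Mpc2-/- level. Atf4 was named after its values were seen. Ddit3, the gene for the stress factor CHOP, also named afterwards, had 19.1, 10.5 and 13.9 ppm against 12.8, 16.4 and 10.8 ppm, with a log2 difference of -0.09 ± 0.27 (SE; limma adjusted p = 0.910).

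The translation factors of mitochondria, encoded by a separate set of 11 nuclear genes that were all measured, had a median of -0.01, with 5 positive and 6 negative, and 2 lower at an unadjusted p under 0.05, against 5.43% of all genes. Without fl/fl replicate 3, 2 of the 11 fell, against 4.4% of all genes. Tufm, the mitochondrial counterpart of eEF1A, had 72.8, 51.5 and 36.0 ppm in the fl/fl libraries and 38.3, 33.7 and 33.7 ppm in those of CS-Mpc2-/-. Its log2 difference was -0.53 ± 0.24 (SE; limma adjusted p = 0.363), and it fell by 0.78 ± 0.21 without fl/fl replicate 3 (limma adjusted p = 0.0312). Gfm1, the mitochondrial translocase, was the other and fell by 0.61 ± 0.18 in that fit (limma adjusted p = 0.0417). Mrrf, a ribosome recycling factor, had 17.2, 10.8 and 14.8 ppm against 9.14, 6.64 and 10.1 ppm, without overlap and with -0.66 ± 0.27 (SE; limma adjusted p = 0.331).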

How the data were processed

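Left ventricular RNA of 3 fl/fl and 3 CS-Mpc2-/- pools was depleted of ribosomal RNA and sequenced on an Ion Torrent Proton, per the labels' protocols. The deposited values are coverage signals, which the authors brought to almost equal library totals, as read from the values. The authors' deposited table also gives a ratio of group means and an unadjusted p-value per gene. Per the submitters' processing notes the genome was mm10. How reads were aligned and counted, whether strand was used and which annotation was taken is not given in the sources used here. Read counts could not be recovered, so no counting intervals are given.

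Each value was divided by its library total and expressed per 1000000 (ppm), then taken as log2(ppm + 1), which understates changes of low genes. A mean of at least 1 ppm was required, which removed 0 genes, so all 63 genes described were tested. Genotype was tested with limma 3.58.1 in R 4.3.3 (lmFit and trended eBayes, two-sided) over all 12072 genes, with Benjamini-Hochberg adjustment and a threshold of 0.05. Ratios were tested by exact permutation over 20 arrangements. The labels say that the pools hold different hearts, and p-values measure the spread between pools.

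The genes, the lists and the fit without fl/fl replicate 3 were chosen with earlier results of these data known. Genes were named by a rule: Eef1a1, Eef1a2 and the eIF2 kinases, the highest level and the 3 smallest p-values per role group, genes called without fl/fl replicate 3, the 2 smallest p-values of each other list, and the 3 most like Eef1a2. Further genes were named for completeness of a family. Transcript lengths and sequences came from GENCODE M21 (99.4% of genes matched; 59 of the 63 by current symbol and 4 by synonym). Near-identical copies were matches of at least 95% over 100 nt or more by blastn 2.17.0. Alternatives were other scalings, pseudocounts and filters, limma without trend or robust, a replicate block, removal of the length trend and each library left out. The limma step was tested on simulated data.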

Additional observations from a re-analysis of the deposited data

How the results depend on the processing

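With all 6 libraries 0 of the 63 genes and 0 of all genes were called under every other scaling, pseudocount, filter and limma setting tried. When a library was left out, the count was 0 to 8 of the 63 and 0 to 1317 of all genes, and the upper ends are the fit without fl/fl replicate 3. Without replicate 3 of both groups 7 of the 63 and 1514 of all genes were called. The count of 8 without fl/fl replicate 3 was 3 with no intensity trend (Eif2s2, Eif4a1 and Eif6) and 15 with the replicate number as a block. In that block CS-Mpc2-/- replicate 3 has no partner and adds no weight to the difference. Leaving out CS-Mpc2-/- replicate 1, 2 or 3 as well gave 2, 6 and 7. Apart from replicate 3 of both groups, the shares of all genes called under these settings are not given here. The counts are therefore not read as a result about the 63. The median of the 63 genes moved to 0.051 with the length trend removed. The replicate numbers do not pair the pools: the deviations of same-numbered libraries correlated at 0.07, -0.04 and -0.07 over genes, and with all 6 libraries the block called 0 of the 63. The log2 ratio of Eif4ebp1 to Eif4e reversed to -0.13 without fl/fl replicate 1 and -0.15 without CS-Mpc2-/- replicate 2, with a range of -0.15 to 0.59. That of Eef1a2 to Eef1a1 ranged from -0.72 to -0.32. For the 44 genes named by rule, 792 settings gave the same call and direction in 759, a new call in 23 (14 genes) and a reversal in 10 (5 genes). The reversals, each with its range when libraries were left out in turn, were as follows. Eef2 ranged from -0.19 to 0.031, which was its value without CS-Mpc2-/- replicate 3. Eif2ak4 ranged from -0.11 (fl/fl replicate 3 out) to 0.15, and had -0.0098 under upper quartile scaling, -0.0082 under median-of-ratios scaling and -0.12 with replicate 3 of both groups out. Eif2b1 ranged from -0.57 to 0.11 (fl/fl replicate 2 out) and Eif4enif1 from -0.10 to 0.019 (fl/fl replicate 1 out). Eif5a2 ranged from -0.16 (fl/fl replicate 2 out) to 0.26, with -0.034 when CS-Mpc2-/- replicate 3 was out and -0.054 when replicate 3 of both groups was. The cause of these changes was not tested. Depth limits the low genes most: 8 of the 63 had under 1000 smallest steps in some library, and Eif4a3 had 284 in fl/fl replicate 1.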
